A study of Mus musculus with 2 samples.

Results

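The genes described here are the 42 genes of the DNA replication machinery, chosen by name from textbook complexes and found on the arrays through the RefSeq accession of each probe. All 42 were matched, by 46 probes, out of 20143 genes with a matched probe. Every one of the 46 probes was well above background on both arrays and none was saturated, so the set is complete among the 13843 genes measured on both arrays. Bone marrow cells of C57BL/6 mice grew for 4 days with 40 ng/ml GM-CSF, a myeloid growth factor, and 5% FBS (fetal bovine serum). The culture labelled GM-CSF + IL-6 also received 40 ng/ml of the inflammatory cytokine IL-6, and the culture labelled GM-CSF ONLY did not. The cells of both cultures are labelled MDSCs (myeloid-derived suppressor cells), which are myeloid cells of immature form that dampen T cell responses. The labels do not say how many mice gave the marrow. All 12 myeloid marker genes looked at, among them Itgam, Csf1r, Lyz2 and S100a9, were well above background on both arrays.

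Each culture was hybridised to 1 array with the dye Cy3, so there was 1 sample in each of the 2 conditions and no difference below has a replicate check or a p-value. Both arrays came from 1 slide and 1 scan. On the plus IL-6 array 57.9% of probes were well above background, and on the GM-CSF only array 59.1%. Signals are fluorescence intensities scaled so that the 75th percentile of the probes is equal on both arrays. The log2 ratio is plus IL-6 minus GM-CSF only. The error printed after a log2 ratio is a technical SD taken from probes spotted several times on these arrays at a like brightness. For a probe with several spots, this SD was divided by the square root of their number. The printed error covers the error of spots and not that of labelling or culture. Brightness differs between probes for reasons other than RNA amount, so no gene's signal is set against another's. RNA came from the whole culture, so fewer dividing cells and less of an mRNA in each cell cannot be told apart.

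DNA replication begins when the origin recognition complex, with CDC6 and CDT1, loads the ring of MCM2 to MCM7 onto DNA in G1. In S phase the ring joins CDC45 and the GINS complex to become the active helicase, and polymerases alpha, delta and epsilon copy the opened strands with the sliding clamp PCNA, its loader RFC and the single-strand binding protein RPA. Most of these genes are transcribed at the G1 to S boundary under E2F factors. In bone marrow, granulocyte and monocyte precursors divide, while mature neutrophils have left the cell cycle.

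The replication genes had nearly the same signal in both cultures, with a small lean towards the culture with IL-6. The median log2 ratio of the 42 genes was 0.05, against -0.02 for all measured genes, and the genes ran from -0.13 for Cdt1 to 0.28 for Mcm2. Of the 42, 28 (66.7%) lay above 0, against 43.8% of all measured genes, and 14 lay below 0, against 56.2%. The share of all genes above 0 was 53.5% without the filter on dim probes. The normexp setting applied another model of the spot background to the raw spot means, in place of the processed intensities, and added a constant to each spot. With normexp the share of all genes above 0 was 49.5%, beside 25 of 42 members. None reached 2-fold in either direction, a size that 0.282% of all genes reached upwards and 0.101% downwards. At the smaller limit of 1.2-fold, a log2 ratio of 0.26, 2 members were higher, Mcm2 and Orc1 (6.36% of all genes), and 0 members were lower (5.97% of all genes). The genes also kept close together. The SD of the log2 ratio over the 42 genes was 0.08, against 0.20 over all measured genes. Among genes brighter than the 75th percentile, which hold 34 of the members, it was 0.08 over the members and 0.13 over all.

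**Figure D1:**
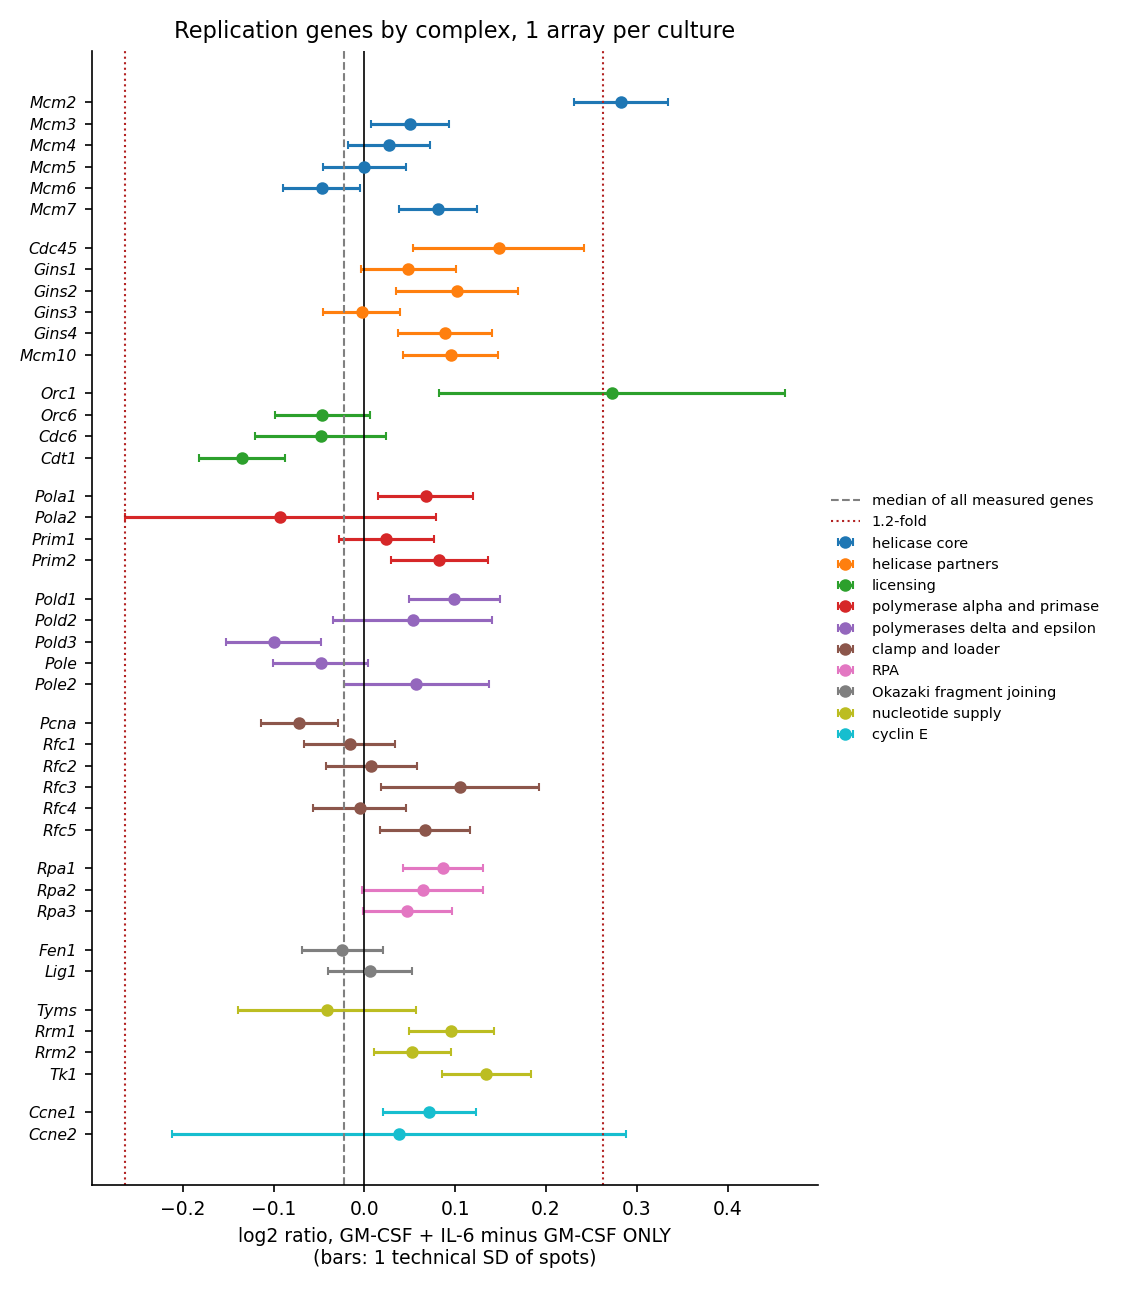
Log2 ratio of each of the 42 replication genes (x axis, plus IL-6 minus GM-CSF only), grouped and coloured by complex, with bars of 1 technical SD, 1 array per culture. The points lie between -0.13 and 0.28, and only Mcm2 and Orc1 pass the dotted line at 1.2-fold on the right.

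Against the error of the spots, 38 of the 42 genes (90.5%) lay within 2 technical SDs of 0, where 70.6% of all measured genes did. Mcm2, Tk1 and Rrm1 were more than 2 technical SDs above 0 (11.7% of all genes) and Cdt1 was more than 2 below (17.7% of all genes). Mcm2 and Cdt1 lay beyond 2 technical SDs in each alternative that kept them. The technical SD of the 75th percentile scaling was used for every alternative. Alternatives that changed only the filters or the genes kept gave the same ratios, so they add no check. The share of all genes beyond 2 technical SDs was not computed in the alternatives. With normexp, Tk1 (0.06) and Rrm1 (0.03) lay inside, while Mcm10 (0.19) and Lig1 (0.10) lay that far above 0 and Pold3 (-0.14) and Mcm6 (-0.11) that far below. Median centring also left Rrm1 inside, at 0.09. Brightness moves with these shares. Among the 34 members brighter than the 75th percentile, the median log2 ratio was 0.05, 22 lay above 0 and 88.2% were within 2 technical SDs. The 8049 bright genes of the array had a median of -0.03, 40.0% lay above 0, and 60.7% were within 2 technical SDs. The part of brightness in the lean was not tested beyond this division. With Mcm2 and Orc1 left out, the median of the other 40 genes was 0.05 and 26 lay above 0.

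**Figure D2:**
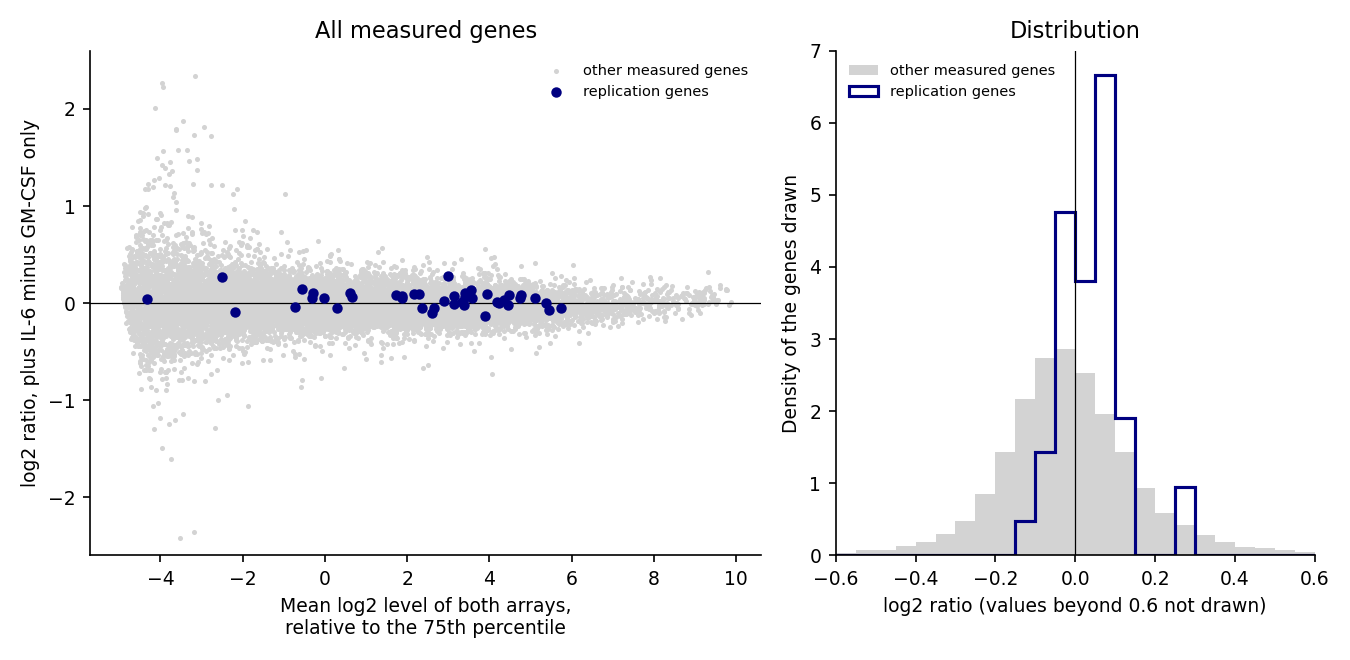
Left, log2 ratio (y axis) against mean log2 level of both arrays relative to the 75th percentile (x axis) for all 13843 measured genes, with the 42 replication genes in dark blue. Right, distribution of the log2 ratios within 0.6 of 0. The replication genes lie in a band from -0.13 to 0.28 with a median of 0.05, inside the wider cloud of all genes with a median of -0.02.

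The MCM helicase core showed 1 gene apart from the other subunits. Mcm2, a subunit of the ring that carries a long histone-binding tail, had a signal of 4567 with IL-6 and 3755 without, a 1.22-fold difference (log2 ratio 0.28 ± 0.05). It stood at percentile 94.5 of all measured genes. The 41 other genes whose probes lay in the same small area of the array had a median log2 ratio of -0.01. Mcm7 had signals of 14446 and 13660 (named with IL-6 first here and below), a log2 ratio of 0.08 ± 0.04, and Mcm3 had 14107 and 13629, a log2 ratio of 0.05 ± 0.04. Both are subunits of the same ring and neither left the range of 2 technical SDs. Mcm4 gave 10657 and 10460.4, a log2 ratio of 0.03 ± 0.04. Mcm5, which closes the gate of the ring with Mcm2, gave 9659 and 9661, and Mcm6 was slightly dimmer with IL-6, at 27238 against 28140.0 (log2 ratio -0.05 ± 0.04). The core is thus 4 genes above 0 and 2 below, with a median of 0.04, which was -0.02 with normexp. Mcm2 was measured by a single probe, as were the other 5.

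RefSeq promoters show what these subunits share in sequence and where they differ. The table used here, of build GRCm38.p6, held 34 of the 42 genes in 39 windows. Each window had 250 bases before and 50 after a start site, and some genes had more than 1 window. The search was for 4 E2F words, TTTGGCGC, TTTCCCGC, TTTGCCGC and TTTCGCGC, on both strands, where matches may share bases with each other or with a CCAAT box. A gene counted if any of its windows held a match. Of the 34 genes, 14 (41.2%) held at least 1 such word, against 2.6% of the 27025 genes in the table. By window it was 14 of 39 (35.9%), against 2.26% of 32851. A CCAAT box, the letters CCAAT on either strand, was in 21 of the 34 (61.8%), against 41.1% of all genes. The 14 genes with an E2F word had a median log2 ratio of 0.03 (range -0.13 to 0.27) and the 20 without had 0.05 (range -0.09 to 0.28). The ranges of the groups with and without the word overlap over most of their length. Mcm2, with the largest ratio, held none, and Mcm6, below 0, held 3. The 250 bases before the start of Mcm2 (chr6:88898781-88899030, minus strand) and of Mcm6 (chr1:128359706-128359955, minus strand) are shown to set these side by side, with E2F words and CCAAT boxes in capitals.
Mcm2: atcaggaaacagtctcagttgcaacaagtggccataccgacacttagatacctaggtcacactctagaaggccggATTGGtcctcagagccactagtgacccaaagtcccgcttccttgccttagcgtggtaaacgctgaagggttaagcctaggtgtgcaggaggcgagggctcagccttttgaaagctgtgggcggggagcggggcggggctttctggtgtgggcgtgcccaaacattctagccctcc
Mcm6: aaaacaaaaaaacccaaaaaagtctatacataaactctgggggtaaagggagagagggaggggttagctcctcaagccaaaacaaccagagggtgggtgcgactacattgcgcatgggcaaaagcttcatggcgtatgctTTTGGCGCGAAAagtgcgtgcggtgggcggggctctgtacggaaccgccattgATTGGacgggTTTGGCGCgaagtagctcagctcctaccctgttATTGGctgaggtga
Mcm3, Mcm5 and Mcm7 held 2 words each, and Mcm4 was not among the genes with a promoter to search. The 30 bases around the match farther from the start in Mcm5 (chr8:75109345-75109374, plus strand) and in Mcm7 (chr5:138172030-138172059, minus strand) follow, with that word in capitals. Their log2 ratios were -0.00027 and 0.08.
Mcm5: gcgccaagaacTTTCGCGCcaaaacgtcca
Mcm7: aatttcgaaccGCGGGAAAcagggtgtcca
A match of letters is a description of the sequence and does not show binding. Only these 4 exact words were searched, so a gene without them may still have an E2F site. A link between the words and the ratios was not tested.

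The helicase partners lay above 0 in 5 of 6 genes, with a median log2 ratio of 0.09, or 0.05 with normexp. Cdc45, which locks the MCM ring into the active helicase, had signals of 366 with IL-6 and 331 without (log2 ratio 0.15 ± 0.09). Among the 4 GINS subunits, Gins2 had 814 and 759 (0.10 ± 0.07), Gins4 had 2393 and 2250.0 (0.09 ± 0.05) and Gins1 had 1934 and 1870.0 (0.05 ± 0.05). Gins3 did not share this, at 21284 and 21329, a log2 ratio of -0.0030. Mcm10, which helps to fire the loaded helicase and is not part of the ring, had 2621 and 2454 (0.09 ± 0.05). Each of the 6 was within 2 technical SDs of 0. The Gins2 probe sat in a tile of 16 rows and 12 columns with at least 4 unnamed probes that differed 2-fold, called a crowded tile below. There were 22 such tiles of 336.

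The licensing genes held both the second highest and the lowest ratio of the set. Orc1, the largest subunit of the origin recognition complex, had 100.5 with IL-6 and 83.2 without, a 1.21-fold difference, but its probe was dim and the technical SD large (log2 ratio 0.27 ± 0.19). With quantile normalization its log2 ratio was 0.26 and just under 1.2-fold. Cdt1, the loading factor that is destroyed once S phase starts, went the other way, at 7272 against 7984 (log2 ratio -0.13 ± 0.05). It was the lowest member except with normexp, where Pold3 was lower. Orc6, a smaller subunit of the origin complex, had 3221 and 3326 (-0.05 ± 0.05). Cdc6, the partner of Cdt1 in loading, had 621 and 642 (-0.05 ± 0.07), and its second, dimmer probe gave -0.14 ± 0.15. Licensing was therefore 1 gene above 0 and 3 below, with a median of -0.05. The E2F words were found in Orc1 on the high side and in Cdt1 and Cdc6 on the low side. Their 30-base windows are shown for this reason, at chr4:108579416-108579445 for Orc1, chr8:122568035-122568064 for Cdt1 and chr11:98908002-98908031 for Cdc6, all on the plus strand.
Orc1: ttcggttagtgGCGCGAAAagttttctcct
Cdt1: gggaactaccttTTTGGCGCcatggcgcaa
Cdc6: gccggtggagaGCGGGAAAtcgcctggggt
The Orc1 word begins 27 bases before the start, the Cdc6 word 138 bases before, and the Cdt1 word at base 33 after it.

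**Figure D3:**
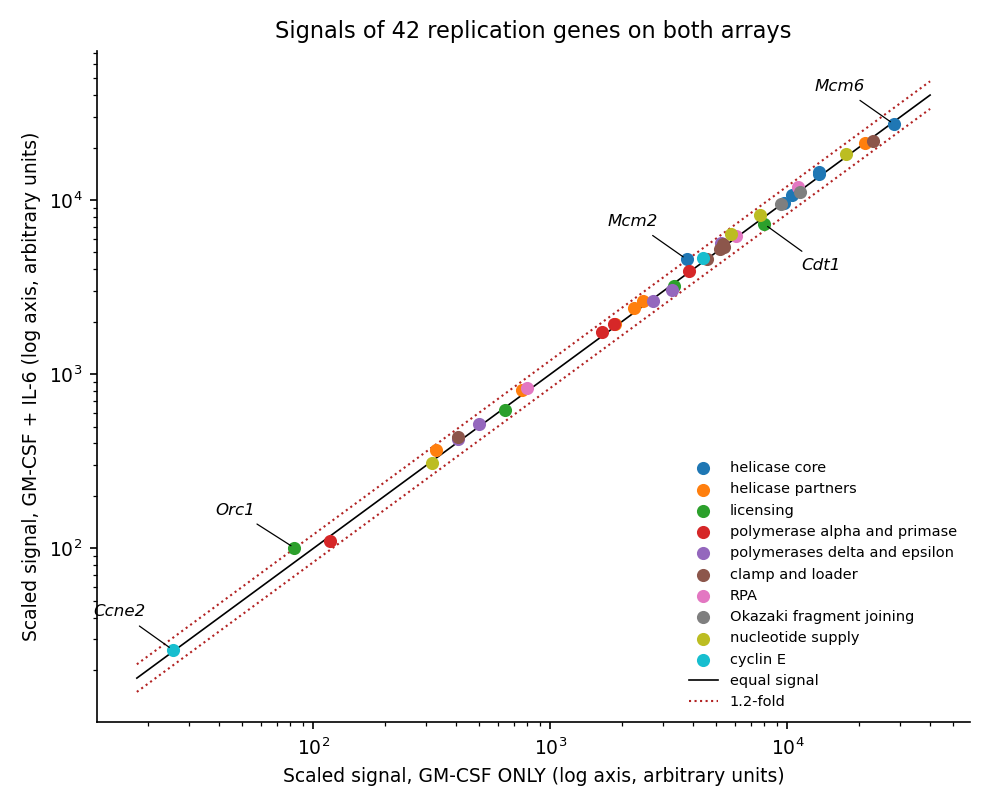
Scaled signal of each replication gene with GM-CSF + IL-6 (y axis) against GM-CSF ONLY (x axis), both on log axes, coloured by complex. The points follow the line of equal signal from Ccne2, at 26.2 and 25.5, to Mcm6, at 27238 and 28140.0, and Mcm2 and Orc1 pass the upper dotted line of 1.2-fold.

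Polymerase alpha and primase, which lay down the first primers of each strand, differed little. Pola1, the catalytic subunit, had 1944 with IL-6 and 1855 without (log2 ratio 0.07 ± 0.05). Prim2 had 1751 and 1654 (0.08 ± 0.05) and Prim1, the subunit that makes the RNA primer, 3898 and 3834 (0.02 ± 0.05). Pola2, the regulatory subunit, had the only negative ratio of the 4, at 110.6 and 117.9 on a dim probe (-0.09 ± 0.17). No ratio of this complex exceeded 2 technical SDs.

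Ratios of subunits of 1 polymerase differed in sign, but all 5 genes of polymerases delta and epsilon lay within 2 technical SDs of 0. In polymerase delta, the main copier of the lagging strand, the catalytic gene Pold1 had 5643 with IL-6 and 5269 without (log2 ratio 0.10 ± 0.05) and Pold2 had 422 and 407 (0.05 ± 0.09). Pold3, an accessory subunit, had 3045 and 3263 (-0.10 ± 0.05). Pold1 and Pold3 thus pointed in opposite directions, and each lay just inside 2 technical SDs of 0. In polymerase epsilon, which copies the leading strand, Pole had 2619 and 2708 (-0.05 ± 0.05) and its partner Pole2 had 519 and 498 (0.06 ± 0.08). A second, dim Pole probe, with 18.5 and 17.2, gave 0.10 ± 0.25.

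The sliding clamp and its loader centred on 0, with 3 genes above and 3 below and a median log2 ratio of 0.0014, or -0.03 with normexp. Pcna, the clamp that holds polymerases on DNA and a common marker of dividing cells, had 21888 with IL-6 and 23006 without (-0.07 ± 0.04). The loader genes were Rfc1 at 5347 and 5406 (-0.02 ± 0.05), Rfc2 at 5228 and 5199.9 (0.0078) and Rfc4 at 4575 and 4591 (-0.0049). Rfc3 and Rfc5, small subunits of the loader, were the higher ones, at 439 and 408 (0.11 ± 0.09) and at 5617 and 5362 (0.07 ± 0.05). The second Rfc4 probe gave 0.10 ± 0.07.

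RPA, which coats the single strands behind the helicase, was above 0 in all 3 subunits. Rpa1 had 11803 with IL-6 and 11117 without (log2 ratio 0.09 ± 0.04), Rpa2 had 830.3 and 794 (0.06 ± 0.07) and Rpa3 had 6249 and 6048 (0.05 ± 0.05). The sizes are close to each other and each is inside 2 technical SDs of 0. The enzymes that finish Okazaki fragments differed little. The flap nuclease gene Fen1 had 11158 and 11347 (-0.02 ± 0.04) and the ligase gene Lig1 had 9480 and 9440 (0.0061). With normexp these were -0.08 and 0.10.

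Genes that supply deoxynucleotides had a median log2 ratio of 0.07, or 0.03 with normexp, and included Tk1 and Rrm1, whose place beyond 2 technical SDs was lost with normexp. Tk1, the thymidine kinase made in S phase, had 6341 with IL-6 and 5777 without (log2 ratio 0.13 ± 0.05). Rrm1, the large subunit of ribonucleotide reductase, had 8207 and 7680.2 (0.10 ± 0.05). Its partner Rrm2, the subunit whose amount follows S phase, had 18250 and 17593 (0.05 ± 0.04). Tyms, which makes thymidylate, had 309 and 318 (-0.04 ± 0.10). Of these 4 genes, 3 were brighter with IL-6 and 1 was dimmer. The cyclin E genes, whose products activate CDK2 at the start of S phase, were both close to 0. Ccne1 had 4624 and 4400.0 (0.07 ± 0.05), with 0.19 ± 0.12 on its second probe. Ccne2 had 26.2 and 25.5 (0.04 ± 0.25) on the dimmest of the probes chosen to give a member its ratio. Its error is that of the dimmest class of repeated probes, which are brighter than it, and its probe was in a crowded tile.

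Where a gene had a second probe, the probes agreed in sign for Cdc6 and Ccne1 and disagreed for Pole and Rfc4, and each disagreement lay within 2 technical SDs of 0 on both probes. The other 38 genes had 1 probe each.

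Other genes of DNA replication and the cell cycle were read the same way, with 43.8% of all measured genes above 0 as the background. Of 30 further replisome and origin factors, 16 lay above 0, with a median log2 ratio of 0.01. None was past 1.2-fold (all genes 6.36% higher and 5.97% lower). More than 2 technical SDs above 0 were 5 of them (all genes 11.7%), and 2 were that far below (17.7%). Without the filter on dim probes, the median of these factors lay -0.0055 from that of all genes. Recql4, a helicase that takes part in origin firing, had the highest ratio (720 with IL-6 and 621 without, 0.21 ± 0.07), followed by Atad5, which unloads PCNA (0.18 ± 0.07). The lowest were Orc4, another origin subunit (-0.25 ± 0.12), and Cdc7, the kinase that fires origins (-0.17 ± 0.23, with 0.34 on its second probe). Of 9 genes of chromatin assembly and maintenance behind the fork, 5 lay above 0, with a median of 0.04, and 2 were more than 2 technical SDs above (all genes 11.7%) and 0 below (17.7%). Asf1b, a histone chaperone, was highest at 9310 and 8354 (0.16 ± 0.05), then Uhrf1, which guides DNA methylation of new strands (0.11 ± 0.05). Slbp, which binds the ends of histone mRNAs, was lowest (-0.10 ± 0.06), then Hells, a chromatin remodeler (-0.04 ± 0.10, crowded tile).

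The wider nucleotide metabolism list had 15 of 24 genes above 0 and a median of 0.09 in log2 ratio, with 9 more than 2 technical SDs above 0 (all genes 11.7%) and 2 below (17.7%). The median was 0.05 with normexp. Shmt2, the mitochondrial enzyme that feeds serine carbon into folate metabolism, had 3489 with IL-6 and 2839 without (0.30 ± 0.05), and Cad, which starts pyrimidine synthesis, had 119.3 and 97.4 (0.29 ± 0.18). These were the 2 genes of this list at least 1.2-fold higher (all genes 6.36%), and 0 were that much lower (5.97%). The Shmt2 and Samhd1 probes were in crowded tiles. Rrm2b, the reductase subunit used outside S phase, was lowest (-0.25 ± 0.23), then Samhd1, which breaks down deoxynucleotides (-0.13 ± 0.04). Of 30 listed genes of G1 to S control 28 were measured, with no probe matched for Skp2 and Cdkn2a well above background without IL-6 only. Of the 28, 16 lay above 0, with a median of 0.03, and 7 were more than 2 technical SDs above 0 (all genes 11.7%) and 3 below (17.7%). With normexp 14 of the 28 lay above 0. The extremes were dim probes. E2f5, a repressor-type E2F whose probe was in a crowded tile, had 92.6 and 64.9 (0.51 ± 0.20), and Cdkn2b, an inhibitor of CDK4 and CDK6, had 44.1 and 60.1 (-0.45 ± 0.24). Next came the kinase gene Cdk6 (0.30 ± 0.15) and the E2F partner gene Tfdp2 (-0.30 ± 0.14), whose second probe gave 0.22.

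Genes of G2 and mitosis had a median log2 ratio of 0.05, the same as the replication genes at this rounding, with 16 of 28 above 0. None was past 1.2-fold (all genes 6.36% higher and 5.97% lower). Of the 28, 8 were more than 2 technical SDs above 0 (all genes 11.7%) and 3 below (17.7%), and with normexp the median was 0.03. Plk1, a mitotic kinase, had 11916 with IL-6 and 10500.2 without (0.18 ± 0.04), and the spindle motor gene Kif11 had 0.17 ± 0.06. On the low side were the kinetochore gene Cenpf, at dim signal (-0.22 ± 0.25), and the motor gene Kif20a (-0.17 ± 0.05). The Plk1 and Cenpf probes were in crowded tiles. Of 16 genes of the replication checkpoint and fork repair, 9 lay above 0, with a median of 0.02, and 3 were more than 2 technical SDs above 0 (all genes 11.7%) and 0 below (17.7%). The median was 0.08 with normexp, and without the filter on dim probes it lay -0.0015 from that of all genes. Brca1, which protects stalled forks, had 0.37 ± 0.25 at dim signal, and Rad9a, part of the checkpoint clamp, had 1284 and 1104 (0.22 ± 0.06). The checkpoint kinase gene Chek1 had -0.15 ± 0.25 and the recombination gene Rad54l had -0.09 ± 0.07.

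The replication-dependent histone genes, whose mRNAs are made in S phase to package new DNA, stood further from 0 than the replication machinery. Of 44 listed, 43 were measured, and H1f3 was not well above background on either array. Of the 43, 39 lay above 0 and 12 were at least 1.2-fold higher (all genes 6.36%), with a median log2 ratio of 0.19, and none was 1.2-fold lower (5.97%). More than 2 technical SDs above 0 were 26 (11.7%), and 3 were that far below (17.7%). With normexp the median was 0.15 and 37 of the 43 lay above 0 (all genes 49.5%). H2bc8 had 211.7 with IL-6 and 127.4 without (0.73 ± 0.14) and H2ac8 had 124.2 and 83.9 (0.57 ± 0.18), the latter in a crowded tile. H2bc4 had 4429 and 5213 (-0.24 ± 0.05) and H2bc21 had 459 and 527 (-0.20 ± 0.08). An earlier reading of the same arrays had already shown this list to be high, so its direction is not independent support. Histone genes are near-identical copies, and a probe for 1 of them can pick up others. No test of the difference between the histone and replication genes was possible with 1 array per culture.

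**Figure D4:**
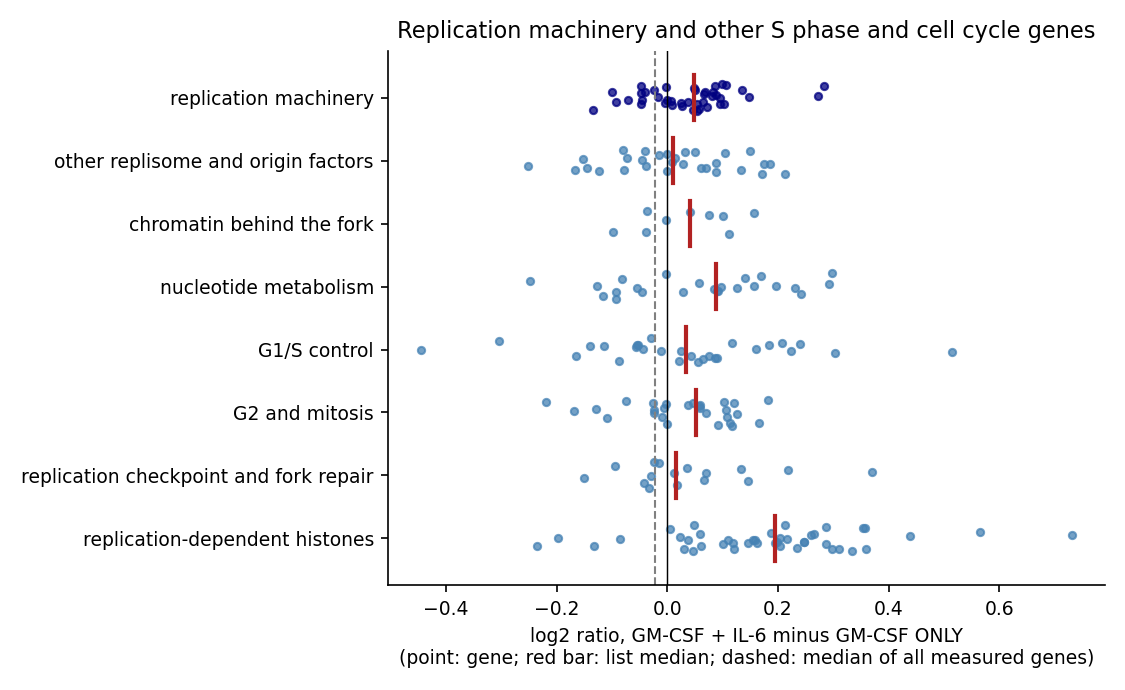
Log2 ratio (x axis, plus IL-6 minus GM-CSF only) of each measured gene in the replication machinery and in 7 other lists (y axis), with the list median as a red bar and the median of all measured genes as a dashed line. The replication genes sit around 0.05 and the histone genes around 0.19, with the other 6 medians between 0.01 and 0.09.

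Markers of other cell types that the marrow culture could hold also differed between the arrays, and their part in the replication values was not tested. Summed signals are led by a list's brightest probes and can differ in direction from its median. Mast cell and basophil markers lay above 0 in 8 of 9 measured genes. Their median was 0.20 in log2 ratio, with a summed signal of 56509 with IL-6 and 52677 without. Tpsb2 was highest (0.42 ± 0.05, with -0.11 on its other probe) and Hdc lowest (-0.21 ± 0.04), while Cma1 was not well above background on either array. Erythroid markers lay above 0 in 5 of 6, with a median of 0.14 and sums of 4706 and 4317. Hba-a1 was highest (163.9 and 101.8, 0.69 ± 0.16), and Klf1, Alas2 and Hbb-bs were not well above background on either array. Stem and progenitor markers had 3 of 7 above 0, a median of -0.03 and sums of 60848 and 62025, with Mecom not well above background on either array. Megakaryocyte markers had 1 of 7 above 0, a median of -0.17 and sums of 34356 and 37594, with Gp5 lowest (-0.44 ± 0.18). The B lineage list had 1 of 6 above 0 and sums of 23875 and 24440, with Vpreb1 lowest (-0.47 ± 0.20). The T and NK list had 2 of 4 and sums of 7747 and 7110, with Ncr1 and Klrb1c not well above background on either array. Of the stromal markers, 2 of 4 lay above 0, with sums of 288 and 207. Sparc, a matrix protein gene, had 100.4 with IL-6 and 35.98 without (1.48 ± 0.23) and was the only gene of the marker and pathway lists past 2-fold, and Col3a1, Pdgfra and Cxcl12 were not well above background on either array. The 12 myeloid markers had 5 above 0, a median of -0.05 and sums of 1172020 and 1117530.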

How the data were processed

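Total RNA of 2 cultures, 1 per condition, was hybridised to 1 Cy3 array each, and groups were taken from the labelled treatment. Per the file headers, the authors extracted spot intensities with Agilent Feature Extraction 10.7.1.1, with background subtraction and detrending, and the deposited intensities are not scaled between arrays. The authors' deposited value table holds log2 values, and how it was normalized is not given in the sources used.

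From the processed intensities, log2 values minus the array's 75th percentile were computed, outlier spots dropped and the spots of a probe averaged. A probe was measured where at least 50% of its spots were well above background. A gene took its brightest probe measured on both arrays. Accessions were named through RefSeq (GRCm38.p6), and coordinates come from its promoter table alone. Technical SDs came from 266 probes with at least 5 spots. With 1 array per group no test was run, and precision is limited by the number of arrays. Members, lists and folds (1.2 and 2) were chosen with earlier results of these data known. All 42 members were named, and in each other pathway list the 2 highest and 2 lowest. Marker genes with values were chosen after these were seen. The calculation was tested on simulated data. Alternatives were other scalings (limma 3.58.1, R 4.3.3), normexp, the value table, other filters and probe rules, and array position. Other work used Python 3.11.15, numpy 2.4.6, pandas 2.3.3 and matplotlib 3.10.9.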

Additional observations from a re-analysis of the deposited data

How the results depend on the processing

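The direction of the small lean was the same in all 14 alternative settings. Of these, 11 were planned and 3 (tile medians subtracted, bright genes only, and without Mcm2 and Orc1) were chosen after seeing the data. Settings that changed only the filters or the genes kept reused the same member ratios, and median centring moved every ratio by the same amount. The direction in those settings is therefore no separate check of the lean. The median log2 ratio of the replication genes ran from 0.02 to 0.06. It was 0.025 with normexp background correction, which also brought its distance from the median of all genes down from 0.07 to 0.027, and the cause was not tested. Without a filter on dim probes that distance was 0.032, since the dim genes let in raised the median of all genes to 0.017. The count of members at least 1.2-fold higher was 1 in place of 2 with quantile normalization, with the authors' value table, with the lowest 25% of genes by level left out, with tile medians subtracted and among bright genes alone. In each of these 5 settings the gene that dropped out was Orc1, and Mcm2 stayed between 0.28 and 0.30 in every setting that kept it. The count was 0 without Mcm2 and Orc1. Members more than 2 technical SDs above 0 numbered 2 to 7 and those below 1 to 3 over the settings, against 3 and 1. The counts above 0 were 7 with cyclic loess and with the authors' value table and 6 with quantile normalization. The share of all genes that far from 0 was not computed in these settings, so the counts are not a result about the members. No setting gave a member at least 1.2-fold lower. Of 573 single-gene values, 552 moved by less than the technical SD and 21 by more, 14 of them with normexp. Settings that changed only the filters or the genes kept left the members' values unchanged. The 552 therefore include many repeats of the value first given. In 23 the sign changed, among them Pola2, at -0.09 in the main setting and 0.05 with normexp. A slide block was not run, since each group is 1 array. No paired analysis was possible because there was only 1 array on each side. Dim signal limits Orc1, Pola2 and Ccne2, which are in the lowest 25% of measured genes.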
